A study of Mus musculus with 18 samples.

Results

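Translation initiation factors are the proteins that bring a ribosome, a messenger RNA and the initiator tRNA together at a start codon. Their own mRNAs were followed here through polysome gradients of mouse embryonic stem cells (ESCs) with and without the RNA helicase DDX6. Members were the protein-coding genes whose symbols begin with Eif1 to Eif6, apart from the eIF2 kinases, eIF4E and its paralog Eif4e2 and the eIF4E-binding proteins. Of 45 such symbols, 43 had at least 3 CPM (a gene's count scaled to a common library total) in at least 3 of the 18 libraries and were analysed among 12705 genes that met this filter, from 51467 genes in the table. The other 2, Eif4e1b and Eif4e3, peaked at 2.04 and 3.49 CPM.

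The study compared wild type (WT) V6.5 ESCs, grown in serum with LIF and 2i, with DDX6 KO ESCs of the same line made by CRISPR-Cas9. Cells of both genotypes were held in 100 ug/ml cycloheximide for 2 minutes before lysis, and each sucrose gradient gave a monosome fraction, a low polysome fraction of 2 to 4 ribosomes and a high polysome fraction of 4 or more. There were 3 gradients per genotype, which makes 6 groups of 3 libraries. The KO group holds 2 clones: clone 1 gave gradient 1, and clone 2 gave gradients 2 and 3. The study made 1 clone with a small insertion and the other with a large deletion in Ddx6, and which is which is not given in the labels. Whether the WT gradients were separate cultures is not given in the sources used here, so p-values measure the spread between these gradients. KO gradients 2 and 3 are of the same clone, so the p-values do not measure the spread between clones. The libraries were made with a 3′ end kit in which a read marks a transcript's end, and each held between 2543617 and 11474550 counts. Ddx6 itself was at 142 to 215 CPM in WT, 54.0 to 85.2 CPM in clone 1 and 9.40 to 28.3 CPM in clone 2. A 3′ read counts the transcript's end and not the edited part, so this level does not test the loss of the protein. The study reported by western blot that DDX6 protein was absent from both clones. The 10 ESC marker genes summed to 3038 to 6790 CPM in WT and 2951 to 4823 CPM in KO. Of 6 fibroblast markers 2 met the filter, with a sum of 3.9 to 11.1 CPM over all libraries and Col3a1 at 0 in all 18. Sox1 alone of 8 differentiation markers met it, at 25.29 to 66.15 CPM over all libraries.

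As background, eIF2 carries the initiator tRNA to the small ribosomal subunit, where eIF1, eIF1A, eIF3 and eIF5 assemble with it, and eIF2B recharges eIF2 with GTP after each round. The eIF4 group binds the capped mRNA, eIF4G being the scaffold and eIF4A the helicase that eIF4B and eIF4H assist. Subunit joining follows with eIF5B, while eIF6 keeps the large subunit apart until then. eIF5A bears the name of an initiation factor but acts mainly in elongation. DDX6 is a DEAD-box helicase of P-bodies that takes part in translational repression and decapping. Messages of ribosomal proteins, and of some initiation and elongation factors such as eIF4B and several eIF3 subunits, are known to carry a terminal oligopyrimidine (TOP) tract through which growth signals set their translation.

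Pyrimidine runs at the start of these genes are shown because mRNAs of several members are known TOP messages. RefSeq start windows (GRCm38.p6) were found for 35 of the 43 members, and the longest run of only C and T was taken from 20 bases before to 30 bases after the annotated first base, on the gene's strand. A run of at least 8 was held by 8 of the 35, or 22.9%, against 21.6% of the genes tested, 6226 of all 32851 entries and 56.4% of 55 ribosomal protein genes with a window. The bound of 8 was set after values were seen, and annotated starts are not measured starts. The long runs began anywhere from 20 bases before the annotated first base (Eif3m) to base 14 (Eif3k). A run here is therefore not read as a TOP tract. Each line gives 30 bases around the run, which is in capitals; first come 8 members with a long run, then 4 others on which the results turn.
Eif3f, chr7:108934403-108934432, plus strand: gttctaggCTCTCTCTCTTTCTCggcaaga
Eif3l, chr15:79075206-79075235, plus strand: aggcgcggagTTCTTCTTCCgctctctccc
Eif3k, chr7:28981856-28981885, minus strand: gctgaaagcgCCTTTCCCTTTgccttcctt
Eif3m, chr2:105017028-105017057, minus strand: tacggcaccgCTCTCTTTTCCggtcggcgt
Eif2b2, chr12:85219475-85219504, plus strand: gcggaagttgaCCTCTCTCggcccggaagt
Eif2b5, chr16:20498795-20498824, plus strand: gcgcaTTCCTTCCTCTTTCTCTCCCTgcaa
Eif2s3x, chrX:94212634-94212663, minus strand: ccgagcaTTTTCCTTTTCTCTCCgagcaag
Eif2s3y, chrY:1010587-1010616, plus strand: ccacagccaCTTCCTTCTTTCgtgagcaag
Eif4b, chr15:102073748-102073777, plus strand: atgtcgcgcaggTCTTCCCgtcggacgccg
Eif4g1, chr16:20672716-20672745, plus strand: agcgcagctccgCCCTCTgcgccggtcacg
Eif1, chr11:100319923-100319952, plus strand: gtgagggcagcgcgCTggcgtcacaggggc
Eif1ax, chrX:159372174-159372203, plus strand: gggcggggagaagCCCCgcccgctgccgcg

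The translation level of a gene was taken, as in the study, as its high polysome level over its monosome level on a log2 scale. Levels are CPM scaled between libraries by the trimmed mean of M-values (TMM), and triplets of values are given in the order of gradients 1, 2 and 3. Because each library is scaled to its own total, a value is a share of the mRNA in that fraction. No unfractionated RNA was used here, so less mRNA per cell and fewer cells with the mRNA cannot be told apart, nor can either be told from a shift between fractions. The members together took 0.964 to 0.976% of counts in the WT monosome and 0.710 to 0.711% in the KO monosome, with no overlap. In the high polysome their share was 1.16 to 1.21% in WT and 0.973 to 1.05% in KO. The low polysome shares were closer, at 0.778 to 0.875% in WT and 0.735 to 0.755% in KO.

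In WT cells 30 of the 43 members had a log2 ratio of high polysome over monosome above 0, against 6282 of all 12705 genes. By limma, 21 of the 43 had more CPM in high polysomes than in monosomes at adjusted p under 0.05, against 28.9% of all genes tested, and 9 were lower, against 32.2% of all genes. Their median log2 ratio was 0.48, with -0.02 over all genes. Each of the 5 eIF2B subunits had a positive estimate and 3 of them were called higher.

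The 3 members with the highest WT translation level were Eif2s1, Eif4a3 and Eif2b1. Eif2s1 measured 41.8, 42.8 and 31.5 CPM in the WT monosome libraries against 34.3, 40.2 and 35.7 CPM in the KO monosome libraries. Eif2s1 stood in the low polysome at 35.5, 43.8 and 32.1 CPM in WT and 44.1, 39.1 and 48.9 CPM in KO. Eif2s1 reached 118, 146 and 119 CPM in the WT high polysome and 104, 104 and 89.9 CPM in the KO high polysome. Eif2s1 encodes the alpha subunit of eIF2, the target of the stress kinases, and its WT high polysome exceeded its WT monosome by 1.74 ± 0.16 (SE) on the log2 scale (limma adjusted p = 9.86e-09). Eif4a3 in the monosome lay at 171, 215 and 202 CPM in WT and at 188, 165 and 173 CPM in KO. Eif4a3 in the low polysome lay at 190.03, 181 and 246 CPM in WT and 183, 329 and 248 CPM in KO. Eif4a3 in the high polysome lay at 705, 525 and 588 CPM in WT and 506, 546 and 663 CPM in KO. This helicase of the exon junction complex had a WT log2 ratio of 1.62 ± 0.18 (SE), limma adjusted p = 1.41e-07, and its WT and KO values overlapped in all 3 fractions. Eif2b1 stood in WT at 18.3, 13.2 and 13.9 CPM in monosomes, 18.8, 22.9 and 16.1 CPM in low polysomes and 37.7, 46.9 and 42.00 CPM in high polysomes. Eif2b1 stood in KO at 22.7, 28.4 and 28.1 CPM, 25.7, 21.1 and 26.04 CPM and 47.1, 50.9 and 45.1 CPM in the same order of fractions. Eif2b1, the alpha subunit of eIF2B, had a WT ratio of 1.52 ± 0.19 (SE) (limma adjusted p = 6.33e-07), and its KO monosome values all exceeded the WT ones.

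The lowest WT translation levels belonged to Eif4b (-2.12 ± 0.11 (SE)), Eif3f (-1.47 ± 0.12 (SE)) and Eif4a2 (-1.41 ± 0.21 (SE)), on the log2 scale. All 3 were richest in the WT monosome. Paralogs stood far apart in WT: Eif4a1, the main helicase subunit of the cap-binding complex, had a ratio of 1.19 ± 0.14 (SE) and Eif4a2, its close copy, lay at the other end of the range. Eif1 and Eif1b, both encoding the eIF1 that guards start codon choice, were both below 0, at -0.73 ± 0.11 (SE) and -1.38 ± 0.16 (SE).

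**Figure D1:**
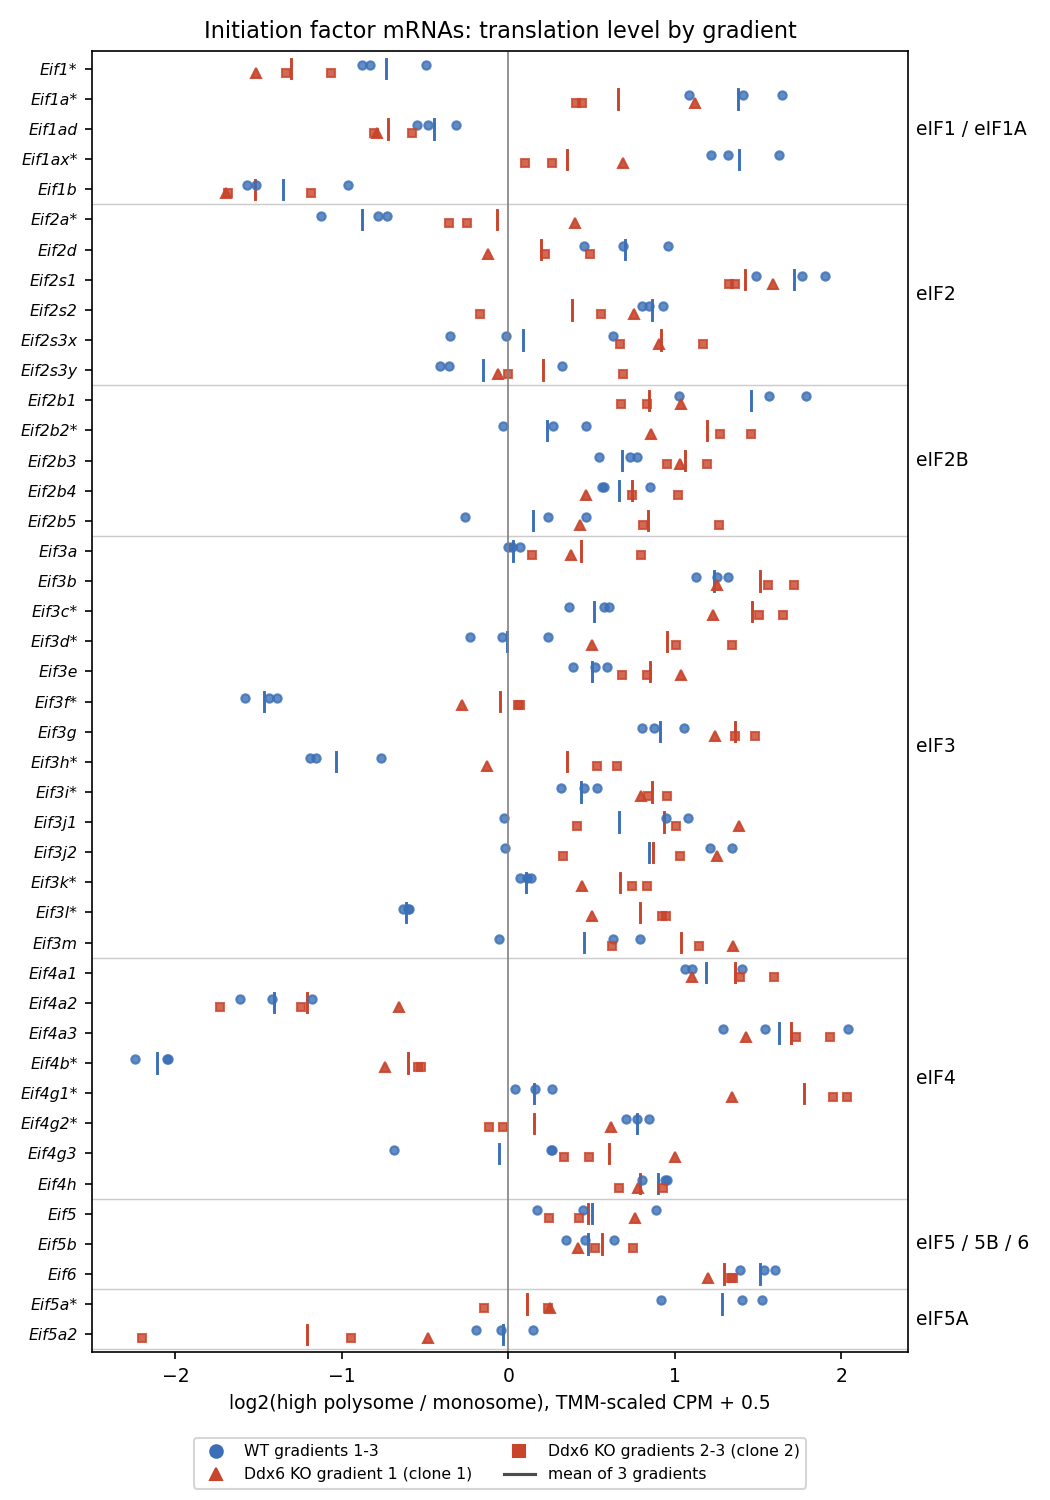
Translation level of each of the 43 members in each gradient: the x axis is log2 of high polysome over monosome, from TMM-scaled CPM plus 0.5, circles are the 3 WT gradients, the triangle is KO clone 1, squares are the 2 gradients of KO clone 2, bars are means, and an asterisk marks a KO effect called by limma. In 17 members all KO gradients lie above all WT gradients, with Eif4b, Eif4g1, Eif3f and Eif3l well separated, and in 8 they lie below.

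In DDX6 KO cells the translation level was raised for Eif4g1, Eif4b and 7 eIF3 genes, among others, and lowered for Eif5a, Eif4g2 and 3 genes of eIF1 and eIF1A, those 3 not with the trend on coding length removed. The KO effect, the change in log2 ratio between genotypes, was called raised in 11 of 43 members, against 10.7% of all genes tested, and lowered in 5, against 7.09% of all genes. The median KO effect was 0.27 over the members and 0.02 over all genes. By gradient, the 3 KO log2 ratios lay above all 3 WT ratios in 17 members (21.2% of all genes) and below them in 8, a share near the 17.8% of all genes, and they overlapped in 18. Scaling by library size alone moved the median KO effect of all genes to -0.10 and gave 8 raised and 7 lowered members. Of all 12705 genes 936 were then raised and 1386 lowered, against 1357 and 901 in the main fit. With clone 2 alone in the KO group, the counts were 12 raised and 6 lowered, against 1500 and 1116 of all genes. The counts fell to 6 raised without WT gradient 2 or KO gradient 3 and to 7 without WT gradient 3. Raised genes of all 12705 also fell, to 609, 466 and 1030 in that order of fits. The lowered count fell to 2 without WT gradient 2 or KO gradient 2 and to 3 without WT gradient 3 or KO gradient 3. Lowered genes of all 12705 fell to 369, 526, 681 and 276 in that order of fits.

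Within KO cells 29 members had a ratio above 0 that passed, against 35.0% of all genes, and 6 had one below 0, against 33.6%. For low polysome over monosome, the KO effect was raised in 9 members (2.31% of all genes) and lowered in 1, Eif5a (2.39% of all genes). Of the 11 members with a raised translation level 7 were among those 9, and both ratios use the same monosome libraries. Leaving out WT gradient 1, WT gradient 2 or KO gradient 3 left 2 members raised in that low polysome comparison each time. Of all 12705 genes 37, 49 and 21 were raised in those fits, against 294 in the main fit.

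**Figure D2:**
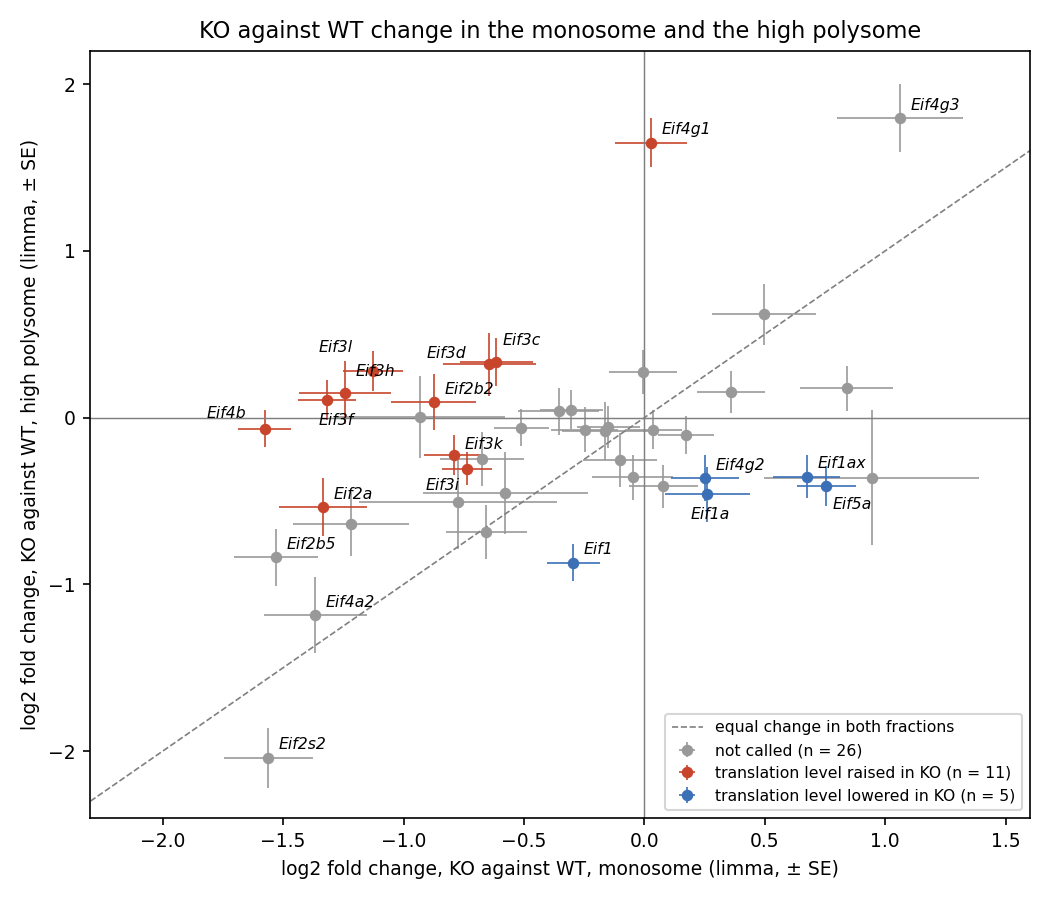
KO against WT log2 fold change of each member in the monosome (x axis) and the high polysome (y axis), from limma with bars of 1 SE; the dashed line marks equal change and Eif2s3y is not drawn. The red members, with a raised translation level, lie left of the line with monosome changes down to -1.58 apart from Eif4g1, and the blue ones, with a lowered level, lie below the line.

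The 2 sides of the ratio moved in different members. Of the 11 with a raised translation level, 10 were lower in the KO monosome and Eif4g1 was not called there. In the high polysome Eif4g1 was raised, Eif2a and Eif3i were lowered and the other 8 were not called. Of the 5 with a lowered translation level all 5 were lower in the KO high polysome, while Eif5a and Eif1ax were also raised in the monosome and Eif1 was lowered in every fraction. Over all members, 5 were raised and 19 lowered in the KO monosome, against 18.6% and 20.1% of all genes. The low polysome had 6 raised and 8 lowered, against 23.4% and 24.3% of all genes. The high polysome had 3 raised and 14 lowered, against 25.3% and 21.1% of all genes, and 6 and 7 members were lowered there without WT gradient 2 and KO gradient 3. Of all 12705 genes 2067 and 2107 were lowered there in those fits. Without KO gradient 1, 8 were raised in the monosome and 6 in the high polysome, against 2257 and 3142 of all genes. Without WT gradient 2 or KO gradient 3, 3 and 2 were raised in the low polysome, against 2482 and 2332 of all genes. These 3 comparisons and the KO effect share libraries and are not independent of each other. The ratio is built from the monosome and high polysome levels, so members chosen by it differ in those levels partly through that choice. How often other genes called by the ratio did so was not counted.

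The eIF3 complex, the largest of the initiation factors and a scaffold on the small subunit, had no gene with a lowered translation level. Of its 14 measured genes 7 had a raised translation level, against 10.7% of all genes tested. All 14 estimates were positive, from 0.12 to 1.42, against 6524 of all 12705 genes. Under the alternatives 12 to 14 estimates stayed positive and 4 to 8 genes were called, with 4 when WT gradient 2, WT gradient 3 or KO gradient 3 was left out. Of all 12705 genes 609, 1030 and 466 were raised in those fits. In the KO monosome 10 of the 14 were lower and none was raised, against 20.1% and 18.6% of all genes, with a median change of -0.71. In the high polysome only Eif3i and Eif3m were lower, against 21.1% of all genes, with a median change of -0.01.

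Eif3f measured 773, 706 and 788 CPM in the WT monosome libraries against 349.6, 263 and 301 CPM in the KO monosome libraries. Eif3f stood in the low polysome at 196, 173 and 201 CPM in WT and 183, 214 and 184 CPM in KO. Eif3f reached 295, 259.99 and 263 CPM in the WT high polysome and 288, 273 and 317 CPM in the KO high polysome. Eif3f, whose start window holds the run of 15 pyrimidines, encodes an MPN-domain subunit and lies at chr7:108934417-108942951 (GRCm38). Its KO monosome values were all under its WT monosome values, while the genotypes overlapped in both polysome fractions. Eif3f changed in the monosome by -1.32 ± 0.12 (SE), limma adjusted p = 6.94e-08, and its KO effect on translation level was 1.42 ± 0.17 (SE), limma adjusted p = 4.93e-05. Eif3l in the monosome lay at 262, 266 and 271 CPM in WT and at 127, 118 and 122 CPM in KO. Eif3l in the low polysome lay at 92.4, 85.6 and 105 CPM in WT and 80.5, 105 and 90.2 CPM in KO. Eif3l in the high polysome lay at 169, 175 and 178 CPM in WT and 179.8, 227 and 231 CPM in KO. Eif3l, a peripheral subunit encoded at chr15:79075179-79094405, was lower in all KO monosome libraries and higher in all KO high polysome libraries than in any WT library of that fraction. Eif3l had a KO effect of 1.41 ± 0.17 (SE), limma adjusted p = 6.08e-05, and its monosome change was -1.13 ± 0.12 (SE). Eif3h stood in WT at 644, 593 and 664 CPM in monosomes, 204, 195 and 282 CPM in low polysomes and 379, 259.6 and 298 CPM in high polysomes. Eif3h stood in KO at 332, 224 and 256 CPM, 191, 295 and 183 CPM and 303, 325 and 403 CPM in the same order of fractions. Eif3h, the other MPN-domain subunit, lies at chr15:51786558-51865523, and again only the monosome separated the genotypes. Eif3h gave a KO effect of 1.39 ± 0.27 (SE), limma adjusted p = 0.00218.

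Eif3c measured 198, 178 and 210.5 CPM in the WT monosome libraries against 124, 132 and 126 CPM in the KO monosome libraries. Eif3c stood in the low polysome at 145, 150.3 and 200.3 CPM in WT and 132, 168 and 131 CPM in KO. Eif3c reached 255, 271 and 313 CPM in the WT high polysome and 291, 375 and 398 CPM in the KO high polysome. Eif3c, a core subunit at chr7:126546455-126566411, was lower in every KO monosome library and overlapped elsewhere. Eif3c had a KO effect of 0.95 ± 0.21 (SE), limma adjusted p = 0.00455, and its high polysome change of 0.33 ± 0.14 (SE) did not pass (limma adjusted p = 0.0621). Eif3d, the subunit that can bind the cap of some mRNAs, had a KO effect of 0.96 ± 0.27 (SE) with limma adjusted p = 0.0185. Eif3k and Eif3i had smaller effects, 0.57 ± 0.17 (SE) and 0.43 ± 0.14 (SE), with limma adjusted p = 0.0275 and 0.0428. Eif3i was called the same way under 5 of 15 alternatives and Eif3k under 8, while Eif3f, Eif3l, Eif3h and Eif3c were called under all 15. Eif3g was raised in low polysome over monosome (0.81 ± 0.16 (SE), limma adjusted p = 0.0102) and missed the threshold for translation level at 0.45 ± 0.16 (SE), limma adjusted p = 0.0552. Eif3a, the largest scaffold subunit, was lower in the KO monosome and low polysome (-0.67 and -1.21), and its translation level effect was 0.43 ± 0.24 (SE), limma adjusted p = 0.217.

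The 2 Eif3j genes encode near-identical, loosely bound subunits, so reads that map to both were dropped and their levels are uncertain. Eif3j1 in the monosome lay at 9.16, 8.60 and 8.49 CPM in WT and at 4.21, 5.92 and 5.26 CPM in KO. Eif3j1 in the low polysome lay at 6.49, 7.32 and 3.17 CPM in WT and 9.84, 4.91 and 11.3 CPM in KO. Eif3j1 in the high polysome lay at 8.98, 18.7 and 16.9 CPM in WT and 11.8, 8.04 and 11.1 CPM in KO. Eif3j2 stood in WT at 9.16, 13.01 and 21.8 CPM in monosomes, 10.3, 15.2 and 8.37 CPM in low polysomes and 21.8, 33.8 and 21.5 CPM in high polysomes. Eif3j2 stood in KO at 7.53, 12.4 and 10.1 CPM, 10.8, 9.82 and 18.7 CPM and 18.6, 15.8 and 21.2 CPM in the same order of fractions. Eif3j1 and Eif3j2 had KO effects of 0.27 ± 0.50 (SE) and 0.12 ± 0.42 (SE), and neither passed (limma adjusted p = 0.748 and 0.868). Their counts were low and their gradients overlapped, so a difference of the size seen for Eif3k was not detectable here.

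**Figure D3:**
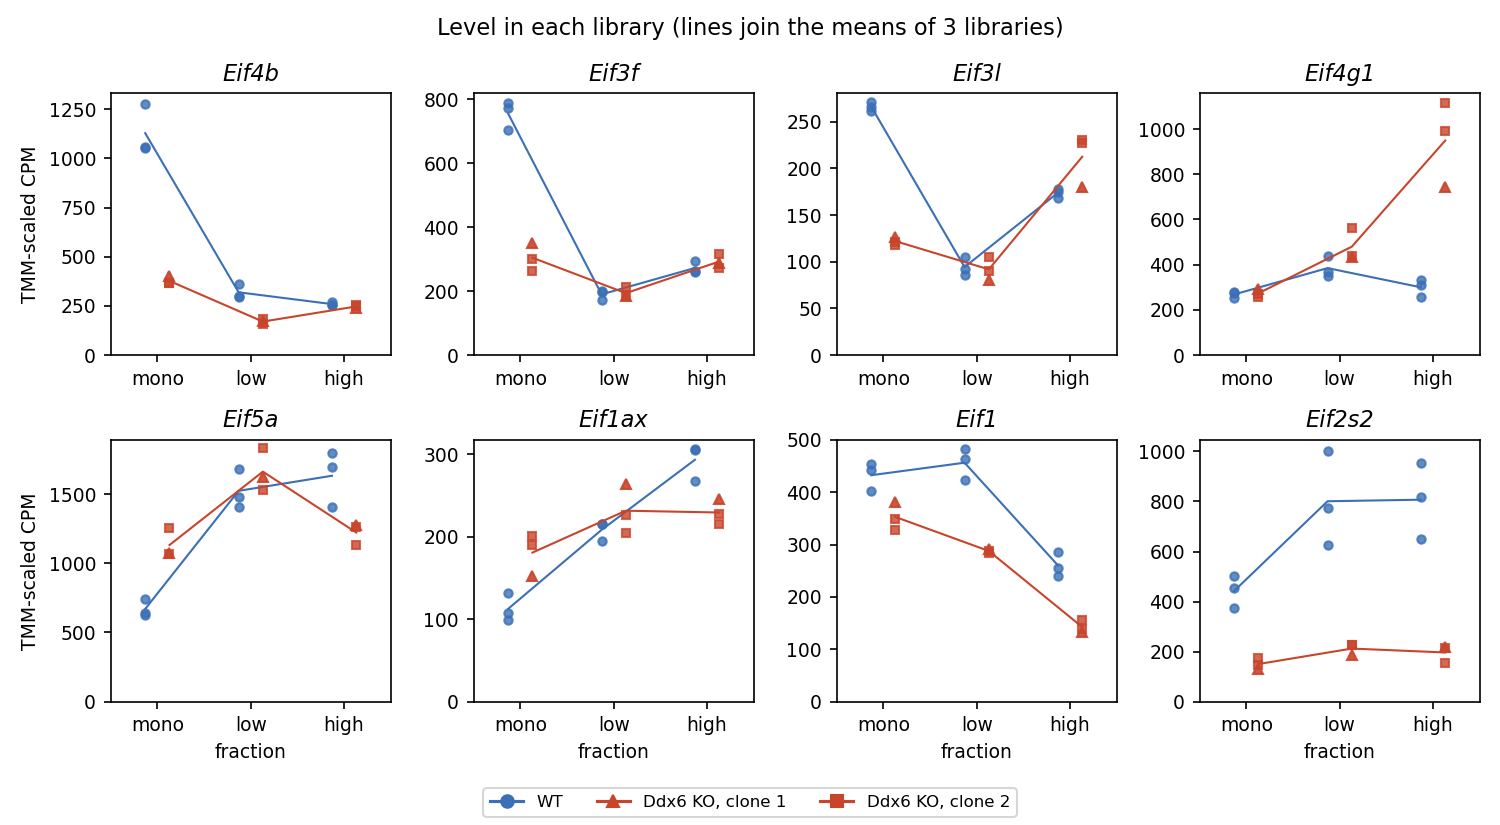
TMM-scaled CPM (y axis, from 0) of 8 members in each of the 3 fractions (monosome to high polysome), with a point per library and lines through the means of 3 libraries; blue is WT, red is KO, with a triangle for clone 1 and squares for clone 2. Eif4b, Eif3f and Eif3l part in the monosome, Eif4g1 parts in the high polysome with KO values of 743 to 1114 CPM, and Eif2s2 is lower in KO in all fractions.

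Among the eIF4 factors the helicase cofactor Eif4b and the scaffold Eif4g1 had the largest KO effects of all members, Eif4b with its called changes in the monosome and low polysome and Eif4g1 with its called change in the high polysome. Eif4b measured 1274, 1051 and 1058 CPM in the WT monosome libraries against 399.8, 366 and 364 CPM in the KO monosome libraries. Eif4b stood in the low polysome at 298, 299.8 and 360.1 CPM in WT and 172, 181 and 158 CPM in KO. Eif4b reached 269, 254 and 255 CPM in the WT high polysome and 239, 251 and 253 CPM in the KO high polysome. Eif4b lies at chr15:102073773-102097173, and every KO library was under every WT library in all 3 fractions, by a wide margin in the monosome and by a narrow one in the high polysome. Eif4b changed by -1.58 ± 0.11 (SE) in the monosome (limma adjusted p = 1.79e-09) and by -0.90 ± 0.11 (SE) in the low polysome (limma adjusted p = 1.94e-06). Its high polysome change of -0.07 ± 0.11 (SE) did not pass (limma adjusted p = 0.643). Its WT log2 ratios by gradient were -2.24, -2.05 and -2.05, its KO ratios were -0.74, -0.55 and -0.53, and the KO effect was 1.51 ± 0.16 (SE), limma adjusted p = 1.83e-05.

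Eif4g1 in the monosome lay at 277, 253 and 276 CPM in WT and at 293, 272 and 256 CPM in KO. Eif4g1 in the low polysome lay at 366, 348 and 440.3 CPM in WT and 436, 563 and 440.3 CPM in KO. Eif4g1 in the high polysome lay at 309.8, 259 and 331 CPM in WT and 743, 1114 and 991 CPM in KO. Eif4g1, at chr16:20668313-20692884, encodes the main eIF4G scaffold, which joins eIF4E, eIF4A and eIF3. The genotypes overlapped in the monosome and low polysome and separated in the high polysome, where clone 1 was the lowest of the KO values. Eif4g1 changed by 1.65 ± 0.15 (SE) in the high polysome, limma adjusted p = 2.72e-08, and by 0.03 ± 0.15 (SE) in the monosome. Its KO effect of 1.62 ± 0.21 (SE), limma adjusted p = 0.000101, was called under all 15 alternatives.

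Eif4g2 stood in WT at 259, 299.7 and 279 CPM in monosomes, 503, 505 and 458 CPM in low polysomes and 422, 538 and 477 CPM in high polysomes. Eif4g2 stood in KO at 276, 367 and 362 CPM, 518, 402 and 512 CPM and 423, 359 and 334 CPM in the same order of fractions. Eif4g2 (DAP5) is the eIF4G relative that lacks the eIF4E-binding part, and its translation level went the other way: the KO effect was -0.62 ± 0.20 (SE), limma adjusted p = 0.0358. That call held in 9 of 15 alternatives. By gradient the WT ratios of Eif4g2 were 0.70, 0.84 and 0.77 and the KO ratios were 0.62, -0.03 and -0.12. Eif4g3 measured 6.77, 12.5 and 9.32 CPM in the WT monosome libraries against 15.7, 25.4 and 21.03 CPM in the KO monosome libraries. Eif4g3 stood in the low polysome at 12.9, 13.1 and 19.4 CPM in WT and 25.6, 22.9 and 21.5 CPM in KO. Eif4g3 reached 8.21, 7.60 and 11.2 CPM in the WT high polysome and 31.9, 32.2 and 29.6 CPM in the KO high polysome. Eif4g3, the third scaffold gene, was the only member raised in all 3 fractions, by 1.06, 0.64 and 1.79 from monosome to high polysome (limma adjusted p = 0.00318, 0.0121 and 7.18e-07). Its KO effect on translation level was 0.73 ± 0.33 (SE), limma adjusted p = 0.129, so it did not pass for a difference between fractions.

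Eif4a1 in the monosome lay at 232, 229.5 and 227 CPM in WT and at 226, 170.3 and 189 CPM in KO. Eif4a1 in the low polysome lay at 179.98, 160.3 and 126 CPM in WT and 207, 233 and 239.9 CPM in KO. Eif4a1 in the high polysome lay at 615, 493 and 475 CPM in WT and 485, 516 and 495 CPM in KO. Eif4a1 had a KO effect of 0.18 ± 0.19 (SE), limma adjusted p = 0.557, and was raised in low polysome over monosome by 0.81 ± 0.20 (SE) (limma adjusted p = 0.0262). Eif4a2 stood in WT at 202, 186 and 184 CPM in monosomes, 78.4, 77.2 and 45.2 CPM in low polysomes and 65.6, 81.7 and 68.4 CPM in high polysomes. Eif4a2 stood in KO at 63.2, 75.5 and 84.01 CPM, 40.2, 20.6 and 37.96 CPM and 39.9, 31.6 and 24.96 CPM in the same order of fractions. Eif4a2 was lower in KO in all 3 fractions, with no overlap and changes of -1.37, -1.02 and -1.18 from monosome to high polysome (limma adjusted p = 4.94e-05, 0.00117 and 0.000264). Neither helicase gene had a called KO effect on translation level. Eif4h, which resembles eIF4B in assisting the helicase, had a KO effect of -0.11 ± 0.17 (SE), limma adjusted p = 0.684.

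Of the 6 eIF2 and eIF2-like genes, 3 were lower in the KO monosome, against 20.1% of all genes tested. In the KO high polysome 4 of the 6 were lower, against 21.1%. The translation level was raised in 1 of them, Eif2a, against 10.7% of all genes. Eif2s2, which encodes the beta subunit at chr2:154871410-154892935, showed the largest called fall of any member in the low and high polysome, and in the monosome only Eif4b had a larger one. Eif2s2 measured 372, 500.2 and 455 CPM in the WT monosome libraries against 130.02, 174 and 146 CPM in the KO monosome libraries. Eif2s2 stood in the low polysome at 628, 773 and 1002 CPM in WT and 185, 225 and 225 CPM in KO. Eif2s2 reached 650.3, 953 and 819 CPM in the WT high polysome and 219.6, 154 and 215 CPM in the KO high polysome. Every KO library of Eif2s2 was under every WT library of its fraction. Eif2s2 changed by -1.56 ± 0.18 (SE) in monosomes, -1.90 ± 0.18 (SE) in low polysomes and -2.04 ± 0.18 (SE) in high polysomes, with limma adjusted p = 1.89e-06, 7.89e-08 and 2.72e-08. The translation level effect was -0.48 ± 0.26 (SE), limma adjusted p = 0.206. Eif2s1 was called lower in the high polysome alone, with a change of -0.36 ± 0.14 (SE), limma adjusted p = 0.0347.

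Eif2a and Eif2d encode proteins outside the eIF2 trimer that can also bring tRNA to the ribosome. Eif2a in the monosome lay at 64.5, 53.9 and 54.7 CPM in WT and at 17.6, 28.4 and 22.8 CPM in KO. Eif2a in the low polysome lay at 24.4, 27.2 and 26.9 CPM in WT and 23.1, 14.1 and 17.6 CPM in KO. Eif2a in the high polysome lay at 29.3, 31.1 and 32.8 CPM in WT and 23.4, 23.8 and 17.7 CPM in KO. Eif2a was lower in every KO library, most in the monosome (-1.33 ± 0.18 (SE), limma adjusted p = 9.25e-06). Its KO effect of 0.80 ± 0.25 (SE), limma adjusted p = 0.0342, was called under 6 of 15 alternatives. Eif2d was lower in the high polysome, with a change of -0.41 ± 0.13 (SE), limma adjusted p = 0.0116.

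The exchange factor eIF2B had 1 of 5 subunits with a raised translation level, against 10.7% of all genes tested. Eif2b2 stood in WT at 201, 209 and 194 CPM in monosomes, 97.7, 81.5 and 119.9 CPM in low polysomes and 277, 204 and 233 CPM in high polysomes. Eif2b2 stood in KO at 123, 96.8 and 111 CPM, 85.7, 138 and 116 CPM and 223, 234 and 304 CPM in the same order of fractions. Eif2b2, the beta subunit at chr12:85219481-85226628, was lower in all KO monosome libraries and overlapped in both polysome fractions. Eif2b2 had a KO effect of 0.97 ± 0.24 (SE), limma adjusted p = 0.0104. Eif2b5, the catalytic epsilon subunit with the longest run of the windows printed, was lower in all 3 fractions, with changes of -1.53, -0.78 and -0.84, and its KO effect of 0.69 ± 0.24 (SE) did not pass (limma adjusted p = 0.0536). Eif2b1 differed in direction, with a KO effect of -0.66 ± 0.24 (SE) that did not pass (limma adjusted p = 0.0569) and a raised monosome level (0.84 ± 0.19 (SE), limma adjusted p = 0.00186).

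The gamma subunit of eIF2 has an X-linked gene, Eif2s3x, and a Y-linked copy, Eif2s3y, and Eif2s3y alone of the pair split the 2 KO clones. Eif2s3x measured 5.58, 5.58 and 6.01 CPM in the WT monosome libraries against 3.57, 3.51 and 2.18 CPM in the KO monosome libraries. Eif2s3x stood in the low polysome at 3.92, 3.94 and 3.93 CPM in WT and 5.25, 4.36 and 7.63 CPM in KO. Eif2s3x reached 5.52, 8.90 and 4.61 CPM in the WT high polysome and 7.13, 5.87 and 5.52 CPM in the KO high polysome. Eif2s3y in the monosome lay at 3.58, 3.02 and 3.52 CPM in WT and at 13.5, 0 and 0 CPM in KO. Eif2s3y in the low polysome lay at 1.72, 2.53 and 2.28 CPM in WT and 9.84, 0 and 0 CPM in KO. Eif2s3y in the high polysome lay at 2.57, 3.90 and 2.64 CPM in WT and 12.9, 0 and 0.310 CPM in KO. Clone 1 exceeded every WT library for Eif2s3y, with 75 to 116 counts per library against 9 to 39 in WT, while 5 of the 6 clone 2 libraries held no count and the other held 3. A count of 0 there allows a level of up to 0.261 to 0.398 CPM, for counting error only. Ddx3y and Uty, also on the Y chromosome, had 0 to 4 and 0 to 2 counts in clone 2. In clone 1 they had 98 to 158 and 33 to 44 counts. The pooled KO group therefore mixes 2 unlike clones for Eif2s3y, and its KO against WT change in the monosome, -3.24 ± 1.70 (SE), did not pass (limma adjusted p = 0.141). For Eif2s3x the monosome change of -0.93 ± 0.35 (SE) passed (limma adjusted p = 0.0409) and held in 5 of 14 alternatives that tested it, on levels near 5 CPM.

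**Figure D4:**
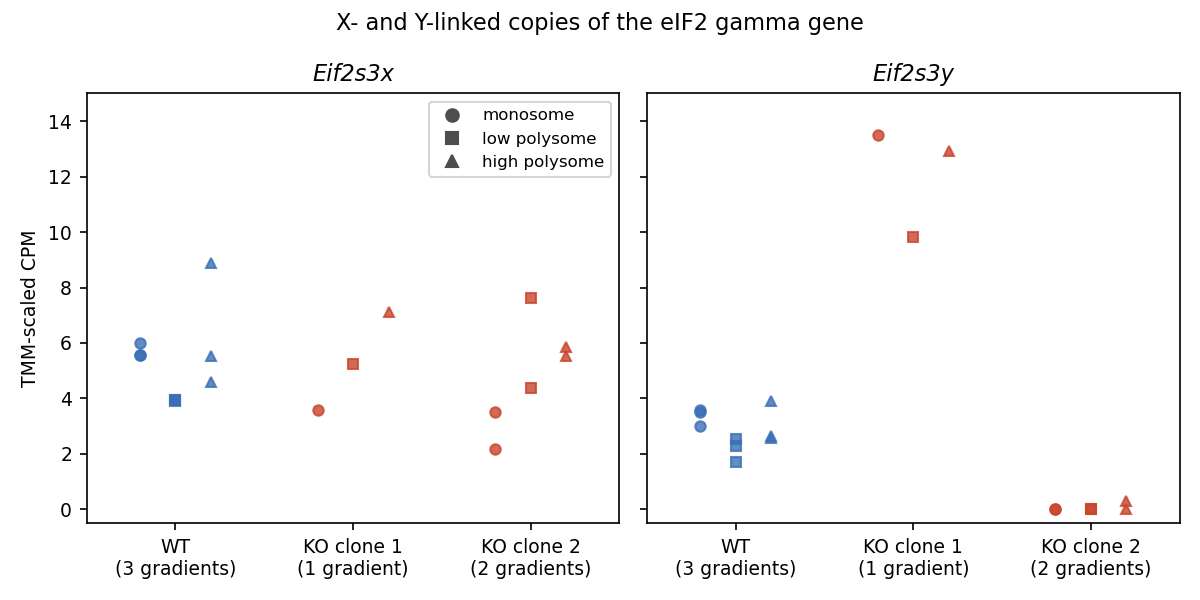
TMM-scaled CPM (y axis) of Eif2s3x and Eif2s3y in each library, with symbols for the fraction and columns for WT, KO clone 1 and KO clone 2. Eif2s3y is at 9.84 to 13.5 CPM in clone 1 and at or near 0 in clone 2, while Eif2s3x spans a like range in all 3 columns.

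The small proteins eIF1 and eIF1A sit near the start codon on the scanning ribosome. Of their 4 genes 3 had a lowered translation level, against 7.09% of all genes tested, and none was raised. All 4 estimates were negative. But with the trend on coding length removed from every library, none of the 4 was lowered and 2 estimates were positive. Without WT gradient 2 or KO gradient 2, 1 of the 4 was lowered, against 369 and 526 of all 12705 genes. Eif1ad, which encodes a separate nuclear protein with an eIF1A-like domain, had a KO effect of -0.28 ± 0.16 (SE) that did not pass (limma adjusted p = 0.242). Eif1ax stood in WT at 98.8, 132 and 107 CPM in monosomes, 215, 216 and 194 CPM in low polysomes and 305, 307 and 268 CPM in high polysomes. Eif1ax stood in KO at 152, 189.9 and 201 CPM, 264, 204 and 227 CPM and 245, 228 and 215 CPM in the same order of fractions. Eif1ax, the X-linked eIF1A gene at chrX:159372178-159389928, was higher in all KO monosome libraries and lower in all KO high polysome libraries. Eif1ax had a KO effect of -1.03 ± 0.19 (SE), limma adjusted p = 0.00171, and -0.44 with the length trend removed (limma adjusted p = 0.147). Eif1a, its autosomal copy, had -0.72 ± 0.24 (SE) (limma adjusted p = 0.042). Both encode nearly the same protein, so reads mapping to both could have been dropped.

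Eif1 measured 454, 402 and 443 CPM in the WT monosome libraries against 382, 348 and 328 CPM in the KO monosome libraries. Eif1 stood in the low polysome at 483, 464 and 423 CPM in WT and 292, 287 and 284 CPM in KO. Eif1 reached 255, 286 and 240.4 CPM in the WT high polysome and 133, 138 and 156 CPM in the KO high polysome. Eif1, at chr11:100319885-100322096, was lower in every KO library of every fraction, with changes of -0.29 in the monosome and -0.87 in the high polysome. Eif1 had a KO effect of -0.57 ± 0.15 (SE), limma adjusted p = 0.0153, which turned to 0.03 with the length trend removed. Eif1b in the monosome lay at 94.4, 136 and 113 CPM in WT and at 119.7, 109 and 92.2 CPM in KO. Eif1b in the low polysome lay at 133, 118 and 96.02 CPM in WT and 83.7, 97.9 and 78.8 CPM in KO. Eif1b in the high polysome lay at 48.1, 45.4 and 38.99 CPM in WT and 36.5, 33.7 and 40.3 CPM in KO. Eif1b overlapped between genotypes in all 3 fractions, with a KO effect of -0.15 ± 0.22 (SE) (limma adjusted p = 0.67). Its low polysome level was called lower in KO, by -0.41 ± 0.15 (SE) (limma adjusted p = 0.0285), a call that held in 6 of 15 alternatives.

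Eif5a stood in WT at 625, 640.5 and 745 CPM in monosomes, 1686, 1479 and 1409 CPM in low polysomes and 1799, 1695 and 1408 CPM in high polysomes. Eif5a stood in KO at 1072, 1070.2 and 1256 CPM, 1625, 1534 and 1833 CPM and 1274, 1263 and 1133 CPM in the same order of fractions. Eif5a, at chr11:69916714-69921958, was among the most abundant members and rose in the KO monosome, by 0.76 ± 0.12 (SE), while its high polysome change was -0.41 (limma adjusted p = 7.41e-05 and 0.00893). Eif5a had a KO effect of -1.17 ± 0.17 (SE), limma adjusted p = 0.000275, which was -0.58 with the length trend removed (limma adjusted p = 0.0325). Processed pseudogenes of Eif5a exist, and reads shared with them were not counted. Eif5a2 measured 3.58, 5.58 and 3.52 CPM in the WT monosome libraries against 7.66, 8.22 and 8.85 CPM in the KO monosome libraries. Eif5a2 stood in the low polysome at 5.39, 6.48 and 5.58 CPM in WT and 11.9, 3.68 and 6.93 CPM in KO. Eif5a2 reached 3.47, 4.80 and 3.96 CPM in the WT high polysome and 5.34, 4.02 and 1.53 CPM in the KO high polysome. Eif5a2, a scarce paralog at under 12 CPM, had a larger but less certain estimate, -1.30 ± 0.60 (SE), limma adjusted p = 0.136. The factors of subunit joining, Eif5, Eif5b and Eif6, had KO effects between -0.21 and 0.12, and none passed.

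Coding length was compared with these effects as a description. Across the 43 members, which share libraries, Spearman's rho between the longest annotated coding length and the KO effect was 0.54. By gradient, rho between coding length and the log2 ratio was -0.11, -0.26 and -0.14 in WT and 0.10, 0.24 and 0.32 in KO, so both genotypes held weak values of unlike sign. Over all genes tested, whatever their length, 10.7% were raised and 7.09% lowered. Of 17 members with up to 1000 coding bases, 2 were raised and 4 lowered, with a median KO effect of -0.28. The 18 members of 1000 to 2000 bases included 7 raised and none lowered, with a median of 0.69, and the 8 longer ones had 2 raised and 1 lowered, with a median of 0.56. With the length trend removed from every library, 10 members were raised and 3 lowered, against 640 and 247 of 11778 genes.

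**Figure D5:**
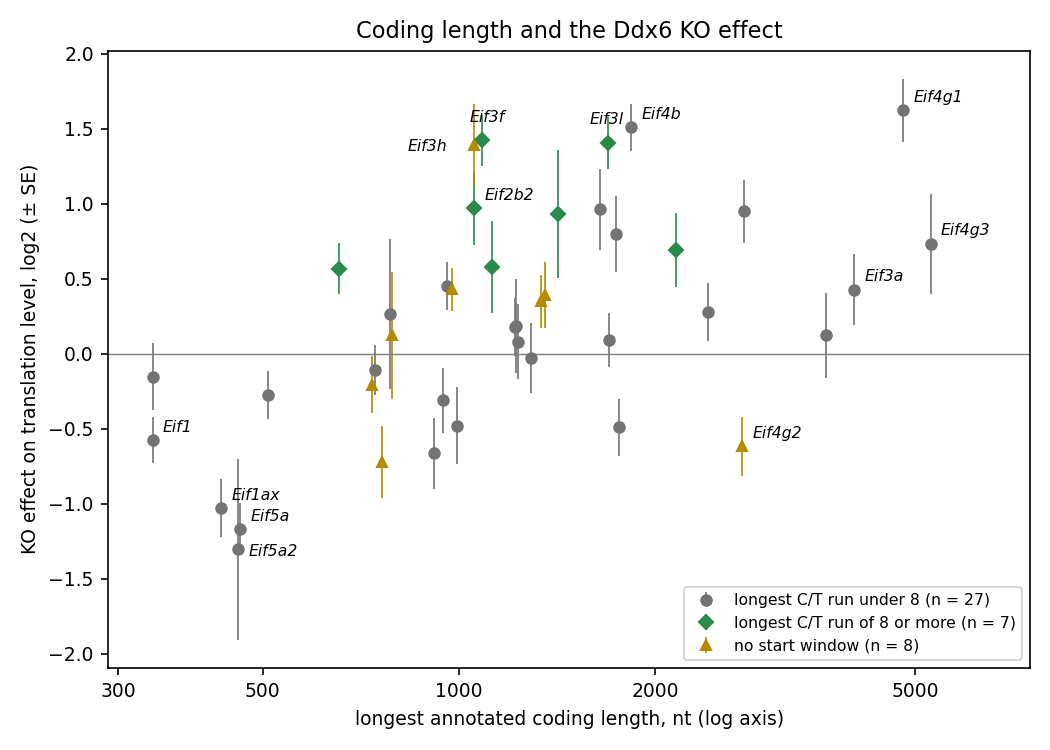
KO effect on translation level (y axis, log2, bars of 1 SE) against the longest annotated coding length (x axis, log scale) for 42 members, without Eif2s3y; green diamonds have a run of 8 or more C or T near the annotated start, triangles have no start window. The short Eif1, Eif1ax and Eif5a lie below 0, and the green diamonds all lie above 0, with the bound of 8 set after values were seen.

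The lengths of the pyrimidine runs printed above were 21 in Eif2b5, 16 in Eif2s3x, 15 in Eif3f, 12 in Eif2s3y, 11 in Eif3k and Eif3m, 10 in Eif3l and 8 in Eif2b2, with 7 in Eif4b. In that order of genes the runs began at positions -17, -5, -4, 2, 14, -20, -7, 6 and -13. Negative positions lie before the annotated first base. Eif2s3y, nearly without counts in clone 2, has no usable ratio there and was left out of the following counts. The bound of 8 was set after values were seen, so the split below is a description and not a test. It puts Eif4b, with a KO effect of 1.51, among the shorter runs. The 7 other members with the long run all had a positive KO effect, against 55.0% of all genes tested with such a run, and their median was 0.93. Of the 7, 4 were called raised, against 11.8% of those genes, and 7 were lower in the KO monosome, against 20.9%. The median is the estimate of Eif2s3x, 0.93 ± 0.43 (SE), which did not pass (limma adjusted p = 0.132). The monosome fall of Eif2s3x held in 5 of 14 alternatives, on 14 to 89 counts a library. The 27 members with shorter runs had a median of 0.09, with 5 raised and 3 lowered. Of all 7521 genes tested with shorter runs, 800 were raised and 602 lowered. Over all genes tested with a window the medians were 0.10 with the run and 0.00 without it, on the log2 scale. Among ribosomal protein genes the order was the other way, with 0.34 with the run and 0.55 without it. Eif3h, Eif3e, Eif3i, Eif1a, Eif2b3, Eif3j2, Eif4g2 and Eif6 had no window.

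Other genes of the pathway were read from lists that were chosen with earlier results of these data known. Of 33 such genes 7 had a raised and 4 a lowered translation level, against 10.7% and 7.09% of all genes tested, with a median KO effect of -0.03. Elongation and termination factors held 5 of the 7, among them Eef2, the translocase, at 2.17 ± 0.28 (SE) (limma adjusted p = 9.87e-05). The other 2 raised genes were the poly(A)-binding proteins Pabpc1 (1.13 ± 0.21 (SE)) and Pabpc4 (1.51 ± 0.20 (SE)), which bridge the tail to eIF4G. The lowered genes were the cap-binding Eif4e (-0.74 ± 0.19 (SE)), Paip2 (-1.05 ± 0.23 (SE)), which holds back poly(A)-binding protein, Denr (-0.73 ± 0.18 (SE)) and Ppp1r15b (-0.66 ± 0.20 (SE)), a subunit that directs the phosphatase to eIF2. Of 75 cytosolic ribosomal protein genes 22 were raised and none lowered, against the same 10.7% and 7.09%, with a median KO effect of 0.54. In the KO monosome 69 of the 75 were lower, against 20.1% of all genes, with a median change of -1.06. In the high polysome 39 of the ribosomal protein genes were lower, against 21.1% of all genes.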

How the data were processed

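Polysome gradients of V6.5 mouse ESCs, WT and DDX6 KO, gave 18 libraries in 6 groups of 3, made with the QuantSeq 3′ FWD kit. The deposited table holds raw counts per gene: the authors trimmed reads with cutadapt 1.14, aligned them to mm10 with STAR 2.5.3a, kept unique alignments and counted reads on Gencode M14 by strand with featureCounts 1.5.3. Reads shared by near-identical genes are thus absent, and a 3′ read level is not divided by length. Totals ran from 2543617 to 11474550 counts. The 92 spike-in sequences, at 28 to 169 counts a library, were left out. Of 51467 gene IDs, 51274 matched Gencode M21, which gave symbols and coding lengths. The 12705 genes that met the CPM filter hold 99.64% of counts. Intervals and floors cover counting error only.

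The members, gene lists and tests were chosen with earlier results of these data known. The main test was limma voom (limma 3.58.1, R 4.3.3) with TMM scaling (edgeR 4.0.16) over 6 group means in a single fit, for 12705 genes with at least 3 CPM in at least 3 libraries, with Benjamini-Hochberg adjustment over all of them and a threshold of 0.05, two-sided. It was tested on simulated data first. Ratios by gradient used a pseudocount of 0.5 CPM. Any member could be named; values in every library were given for the 10 called members with the smallest adjusted p, the 3 highest and 3 lowest in WT translation level, and paralog groups. Values of Eif2s2 and Eif2a, outside that rule, were added after they had been seen. The 15 alternatives were DESeq2 1.42.0, edgeR's quasi-likelihood test, library size alone, no filter, at least 10 CPM, only the compared groups, thinned counts, removal of the trend on coding length, a replicate block and each of 6 gradients left out. The 3 fractions of a gradient come from the same lysate, so they are paired by design; deviations from group means correlated at -0.181 to 0.485 within gradients. WT and KO gradients that share a number are not paired.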

Additional observations from a re-analysis of the deposited data

Results flagged for a closer look

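For 16 members the high polysome over monosome ratio differed between WT and KO by the interaction test of limma, at adjusted p under 0.05 over all genes tested. The log2 KO effects on the raised side were 1.62 for Eif4g1, 1.51 for Eif4b, 1.42 for Eif3f, 1.41 for Eif3l, 1.39 for Eif3h, 0.97 for Eif2b2, 0.96 for Eif3d, 0.95 for Eif3c, 0.80 for Eif2a, 0.57 for Eif3k and 0.43 for Eif3i. On the lowered side they were -1.17 for Eif5a, -1.03 for Eif1ax, -0.72 for Eif1a, -0.62 for Eif4g2 and -0.57 for Eif1. All 3 KO gradients lay on the same side of all 3 WT gradients for each of these except Eif1a, where clone 1 lay at 1.12, within the WT range. Both clone 2 gradients lay farther from the WT mean than clone 1 in 14 of the 16, and nearer to it in Eif2a and Eif1. Over all 2258 genes called in this comparison, both lay farther in 59.6%. Clone 2 gives 2 of the 3 KO gradients on which these calls rest. What sets the 2 clones apart in these ratios was not tested.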

How the results depend on the processing

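Eif4g1, Eif4b, Eif3f, Eif3l, Eif3h, Eif3c and Eif5a were called the same way for the KO effect on translation level under all 15 alternatives. Over 28 named members, 351 alternative values kept their direction and side of the threshold, 47 fell below it, 7 passed it and 12 reversed. With the length trend removed Eif1 went to 0.032 and Eif1b to 0.452. Eif3j2 went to -0.160 with thinned counts and spanned -0.365 to 0.439 with a gradient left out. Over the gradients left out, Eif3j1 spanned -0.130 to 0.545, Eif4a2 -0.097 to 0.429 and Eif4a3 -0.087 to 0.217. Eif4a3 also went to -0.039 with library size alone, -0.014 with no filter and -0.009 with only the compared groups. None of these reversed values passed the test.

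Leaving out a gradient gave 6 to 12 members raised and 2 to 6 lowered in translation level, against 466 to 1500 and 276 to 1116 of all 12705 genes. For low polysome over monosome 2 to 10 members were raised and 0 to 1 lowered, against 21 to 482 and 6 to 335 of all genes. Leaving out a gradient gave 4 to 8 raised and 16 to 19 lowered in the monosome, 2 to 7 raised in the low polysome, and 2 to 6 raised and 6 to 15 lowered in the high polysome. Fitting only the compared groups gave 8 lowered in translation level, 0 lowered in low polysome over monosome and 2 raised in the low polysome. Removing the length trend gave 3 lowered in translation level, 0 lowered in low polysome over monosome, 2 lowered within KO and 5 raised in the high polysome. Thinned counts gave 0 lowered in low polysome over monosome. The cause was not tested.

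With the gradient as a replicate block, 11 members were raised and 5 lowered in translation level. A block on the number that WT and KO gradients share gave 8 raised in the monosome and 1 raised in the low polysome; these numbers pair no samples, and deviations of same-numbered gradients correlated at -0.509 to 0.254. Members with a lowest count under 20, 4 in all, have wide errors.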
